A study of Homo sapiens with 4 samples.

Results

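The 38 genes described here encode the chaperones of the endoplasmic reticulum (ER), their disulfide isomerases, the machinery that removes misfolded proteins, and the sensors of the unfolded protein response. They were taken by gene symbol from a deposited table of 58735 genes, by known function rather than by a threshold on their values, and all 38 symbols were found. RNA was sequenced from cells labelled as the fibroblast line HFL1, derived from human fetal lung, in 2 libraries labelled WT and 2 labelled KO. Per the study's design text, calumenin was knocked out or knocked down; the sources used here do not say how the KO cells were made, how many clones they represent or whether they were treated. Calumenin, the product of CALU, binds calcium in the ER and later secretory compartments, and the study asked how its loss affects senescence and fibrosis signalling.

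Proteins that enter the ER fold with the help of the Hsp70 chaperone BiP (HSPA5), the Hsp90 chaperone GRP94 (HSP90B1), the lectin chaperones calnexin and calreticulin (CANX, CALR), and disulfide isomerases that form and rearrange cysteine bonds. When unfolded proteins accumulate, the membrane sensors ATF6, IRE1 (ERN1) and PERK (EIF2AK3) are activated. Cleaved ATF6 induces chaperone genes through ER stress response elements in their promoters, IRE1 splices XBP1 mRNA, whose product induces genes of ER-associated degradation, and PERK phosphorylates eIF2alpha, which raises translation of ATF4. Fibroblasts, which secrete matrix proteins, depend on this folding capacity. Values are FPKM, by definition fragments scaled to gene length and sequencing depth, so levels of different genes are per length. Whether a further scaling between libraries was applied is not stated. XBP1 splicing, ATF6 cleavage and protein levels are not visible in gene-level values.

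CALU measured 87.7 and 81.8 FPKM in WT and 6.59 and 5.95 FPKM in KO, so the targeted gene followed the labels (log2 change -3.56, SE 0.14, limma adjusted p = 0.00154). Reads per library, recovered from the FPKM steps, ranged from 16173899 to 17715774, of which 106956 to 126177 fell on the members. The fibroblast label was poorly borne out by its markers. Of 13 fibroblast genes, 8 were below 1 FPKM throughout, with COL1A2 and POSTN listed at 0. The list summed to 986 and 1391 FPKM in WT and 480 and 749 FPKM in KO. S100A4 alone made up 933 and 1352 FPKM of the WT sums and 449 and 723 FPKM of the KO sums and did not pass, COL1A1 was higher in KO (0.234 and 0.280 FPKM in WT, 3.04 and 3.16 FPKM in KO), and NT5E and TWIST2 were lower. Epithelial genes summed to 1000 and 1139 FPKM in WT and 1886 and 2254 FPKM in KO. Of these 12 genes, 4 were higher, 2 lower and 3 below 1 FPKM throughout. KRT8 measured 349 and 425 FPKM in WT and 731 and 926 FPKM in KO. KRT18 measured 326 and 356 FPKM in WT and 710 and 741 FPKM in KO. KRT7 measured 289 and 321 FPKM in WT and 354 and 492 FPKM in KO and did not pass. These keratins made up most of the epithelial sums in every library. CDH1 and KRT19 also rose, while KRT15 and CLDN4 fell. Whether the cells are as labelled was not tested. Genes of mucus- and antibody-secreting cells, which carry a large ER, summed to 8.89 and 11.9 FPKM in WT and 2.75 and 3.75 FPKM in KO, with 3 of 5 below 1 FPKM throughout and 2 lower. Endothelial genes were below 1 FPKM in 6 of 6 cases and leukocyte genes in 5 of 6; the leukocyte list summed to 19.5 and 17.4 FPKM in WT and to 5.89 and 6.49 FPKM in KO. The part of these shifts in the results below was not tested. In bulk RNA, a change in the number of cells of a type and a change in RNA per cell cannot be told apart. Whether libraries with the same label are separate cultures is not stated, so the p-values rest on a spread between libraries that may be technical.

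The ER folding genes did not move as a block. In KO cells the summed level of the 38 members was nearly the same as in WT, but BiP, DNAJB9 and HERPUD1 were lower while GRP94, calreticulin, PDIA3 and PDIA5 were higher. Among the sensors, PERK and ATF6B transcripts rose and IRE1 transcripts fell. The summed level was 1490.5 and 1443 FPKM in WT and 1509 and 1513 FPKM in KO. On this scale the ranges of the groups did not overlap, although they lay close together. As a share of each library's total FPKM the groups did overlap, at 0.510% and 0.430% in WT and 0.507% and 0.462% in KO. Of the 38 members, 37 had at least 1 FPKM in at least 2 libraries and were tested. DERL3, a derlin of the degradation channel, was the exception, listed at 0 in both WT libraries and at 0.045 and 0.032 FPKM in KO. With limma and Benjamini-Hochberg adjustment over all 14100 genes tested, 6 members rose and 5 fell at an adjusted p under 0.05, and 26 did not pass. The called share of the members was 29.7%, beside 23.3% of all genes tested (12.1% higher and 11.1% lower), so the members' share was near that of genes in general. Their median log2 change was -0.02, against 0.03 for all genes. With single libraries left out the number called higher was between 0 and 4 and the number called lower between 1 and 3. It was 0 higher and 1 lower by limma without WT replicate 1 (5 and 3 at an unadjusted p under 0.05), 0 and 2 without WT replicate 2 (5 and 5 unadjusted), 2 and 3 without KO replicate 1, and 4 and 3 without KO replicate 2. Limma-voom on recovered reads called 6 and 5. Between 1 and 7 of the 11 called members passed in these smaller fits, and only DNAJB9 passed in all 4 of them.

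**Figure D1:**
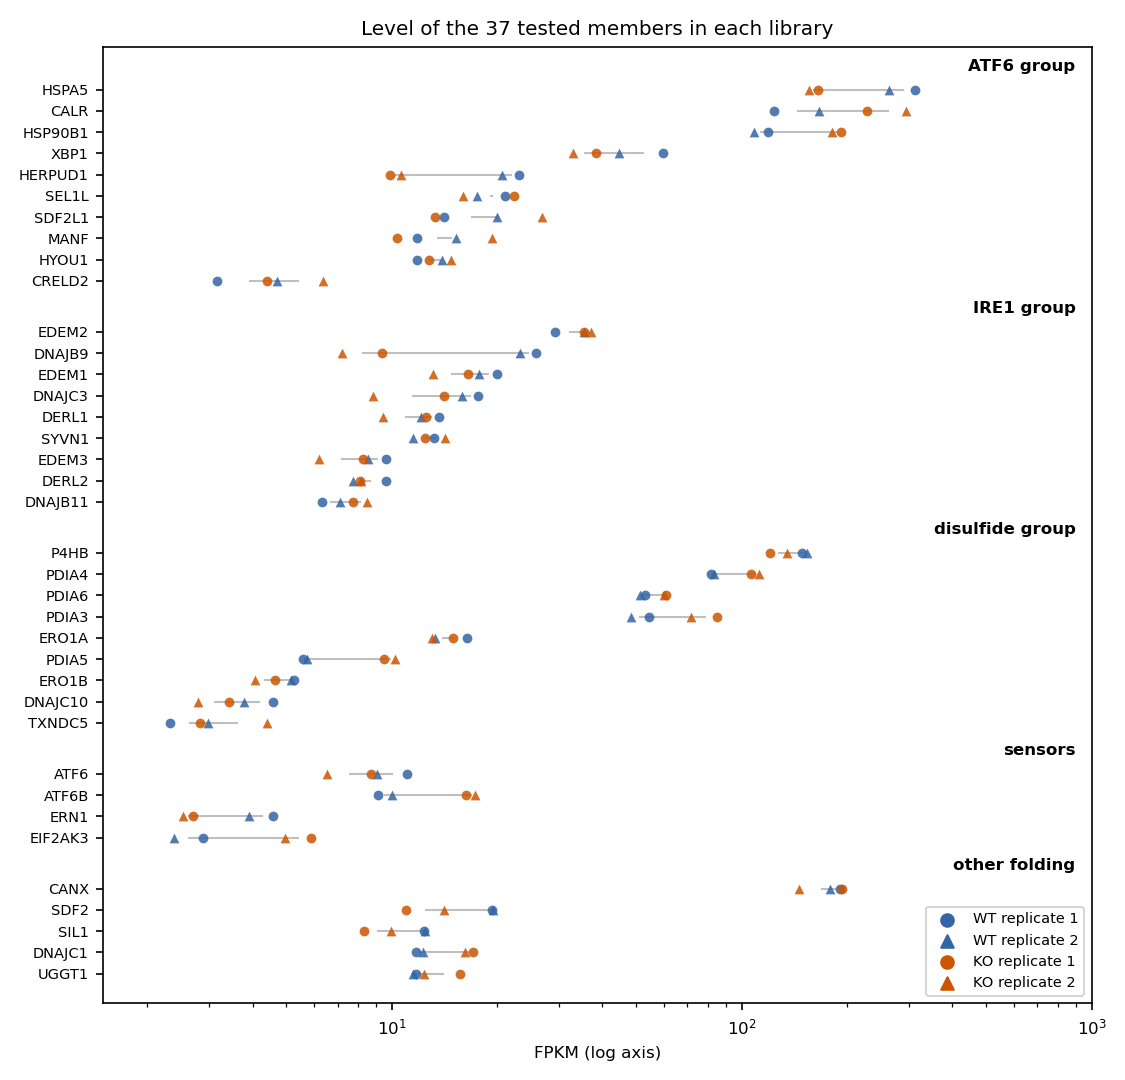
FPKM on a log axis for the 37 tested members in each library, grouped by role and ordered by WT mean. Blue is WT, orange is KO, circles and triangles are replicates 1 and 2, and the grey line joins the group means. HSPA5 is the highest member in WT and, by group mean, lies below CALR, HSP90B1 and CANX in KO. In KO replicate 2 it lies above CANX. DNAJB9 and HERPUD1 show wide gaps between the groups.

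The most abundant chaperones changed order. HSPA5 (chromosome 9, 125234853 to 125241330, minus strand, GRCh38), the Hsp70 of the ER lumen and a binding partner of the sensors, measured 314 and 264 FPKM in WT and 165 and 156 FPKM in KO. Both KO libraries were below both WT libraries, a 1.80-fold lower mean, and the gene fell (log2 -0.84, SE 0.17, limma adjusted p = 0.0243). HSP90B1 (chromosome 12, 103930107 to 103953645, plus strand), the Hsp90 of the ER, measured 119 and 109 FPKM in WT and 193 and 181 FPKM in KO. It rose 1.64-fold, again with no overlap between the groups (log2 0.71, SE 0.15, limma adjusted p = 0.0277). CALR (chromosome 19, 12938578 to 12944489, plus strand), the soluble lectin chaperone that also buffers ER calcium, measured 123 and 167 FPKM in WT and 228 and 294 FPKM in KO. It rose 1.80-fold (log2 0.85, SE 0.23, limma adjusted p = 0.0488), close to the threshold and with replicate 2 above replicate 1 in both groups. CANX, the membrane-bound lectin chaperone and partner of CALR in the same cycle, measured 190.5 and 178 FPKM in WT and 193 and 145 FPKM in KO, with overlapping groups (log2 -0.14, SE 0.19, limma adjusted p = 0.651). HSPA5 ranked 1 among the members by mean FPKM in WT and 4 in KO, while CALR went from 4 to 1 and HSP90B1 from 5 to 2.

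Ratios within a library do not depend on how libraries were scaled. The ratio of HSP90B1 to HSPA5 was 0.378 and 0.412 in WT but 1.17 and 1.16 in KO. The groups were far apart relative to their spread, 0.395 ± 0.0239 against 1.16 ± 0.00544 (SD, n = 2 per group, exact two-sided permutation p = 0.333, the smallest that 2 libraries against 2 can give). The ratio of CALR to CANX was 0.647 and 0.934 in WT and 1.18 and 2.02 in KO, separate but with a wide spread within KO. These ratios were chosen with the changes of single genes known, and describe them on another scale. The calls of HSPA5, HSP90B1 and CALR were lost when any single library was left out. Without WT replicate 1 their limma adjusted p was 0.185, 0.152 and 0.269, and without WT replicate 2 it was 0.0819, 0.191 and 0.0792. Without KO replicate 1 it was 0.0632, 0.0732 and 0.0599, and without KO replicate 2 it was 0.0686, 0.0520 and 0.127. HSP90B1 also missed the threshold with quantile normalization (0.0557) and with equal total FPKM (0.0548), and CALR with a pseudocount of 0.1 (0.0508). Over all 11 alternatives it ranged from 0.00341 to 0.185 for HSPA5, 0.00535 to 0.191 for HSP90B1 and 0.00330 to 0.269 for CALR.

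**Figure D2:**
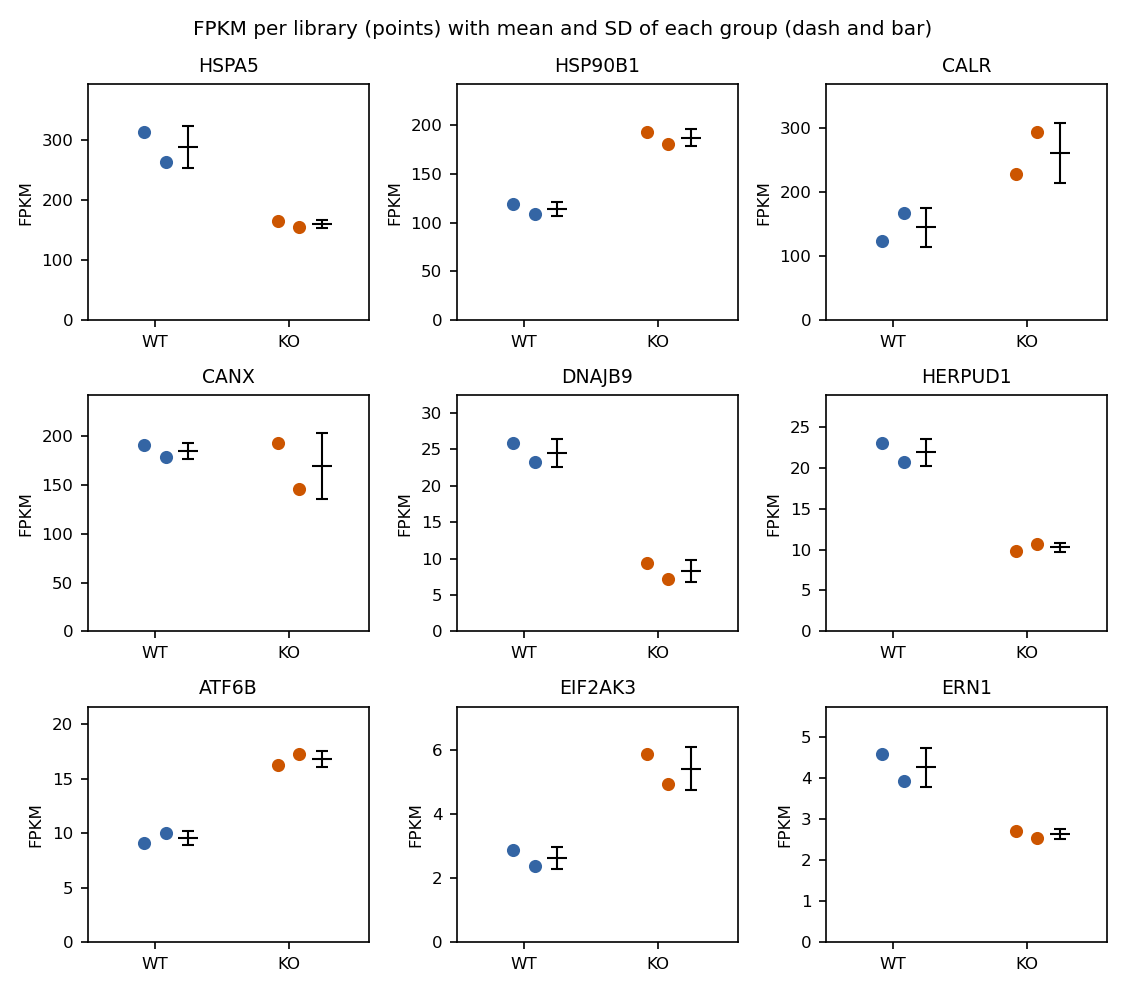
FPKM of 9 members in each library, from an axis that starts at 0. Points are single libraries, with replicate 1 at the left, and the dash and bar give the mean and SD of 2 libraries. Except for CANX, WT and KO points do not overlap in any panel.

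The ATF6 group holds chaperones and degradation factors known as targets of ATF6, with or without XBP1. Of its 10 members, 2 rose, 2 fell and 6 did not pass. The called share was 40%, beside 23.3% of all genes tested, and the median log2 change was 0.08. That median took either sign when single libraries were left out: 0.34 without KO replicate 1, 0.22 without WT replicate 2, -0.04 without WT replicate 1 and -0.16 without KO replicate 2. HERPUD1 (chromosome 16, 56932048 to 56944863, plus strand), a membrane protein that assembles the degradation complex, measured 23.1 and 20.7 FPKM in WT and 9.88 and 10.7 FPKM in KO. It fell 2.13-fold, with both KO libraries at less than any WT value (log2 -1.02, SE 0.14, limma adjusted p = 0.00846). The call was lost without WT replicate 1, at an adjusted p of 0.0696 (range over the alternatives 0.00108 to 0.0696). HERPUD1 also missed the threshold with no filter on low values, at a limma adjusted p of 0.05065. XBP1, the transcription factor whose mRNA IRE1 splices, measured 59.6 and 44.7 FPKM in WT and 38.4 and 33.0 FPKM in KO. Its groups were separate, but it did not pass (log2 -0.52, SE 0.19, limma adjusted p = 0.103). The other members of the group did not pass, with log2 changes that ranged from -0.02 for SEL1L, a scaffold of the degradation ligase, to 0.38 for CRELD2, a disulfide isomerase-like protein at 3.17 and 4.69 FPKM in WT and 4.41 and 6.38 FPKM in KO. SDF2L1, a partner of BiP, measured 14.1 and 19.9 FPKM in WT and 13.3 and 26.8 FPKM in KO. MANF, a secreted neurotrophic factor and ER stress marker, measured 11.8 and 15.3 FPKM in WT and 10.3 and 19.3 FPKM in KO. In both genes the KO libraries spanned the WT values. HYOU1, the large Hsp110-like partner of BiP, had a log2 change of 0.09 (limma adjusted p = 0.701).

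Promoters of HSPA5 and CALR are shown because both hold the same element and moved in opposite directions. That of HERPUD1, which fell, is shown for its related element. The sequences are RefSeq windows on GRCh38.p14, from 250 bases before to 50 bases after the annotated start, found for 34 of 38 members; PDIA3, DNAJC1, DERL1 and DERL3 had no window. The ER stress response element ERSE was searched on both strands as CCAAT, then 9 bases of any kind, then CCACG, and ERSE-II as ATTGG, then 1 base of any kind, then CCACG. The stretches below lie upstream of the start and outside annotated exons, read 5′ to 3′ in the direction of the gene, with the element in capitals. In HSPA5 and HERPUD1 the element reads as searched; in CALR the capitals hold its reverse complement.
HSPA5 promoter, chr9:125241344-125241593, minus strand: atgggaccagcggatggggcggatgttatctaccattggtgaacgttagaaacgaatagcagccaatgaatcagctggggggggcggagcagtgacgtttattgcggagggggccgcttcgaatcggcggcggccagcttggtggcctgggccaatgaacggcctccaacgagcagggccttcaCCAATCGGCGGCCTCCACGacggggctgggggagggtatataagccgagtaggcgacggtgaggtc
HERPUD1 promoter, chr16:56931892-56932047, plus strand: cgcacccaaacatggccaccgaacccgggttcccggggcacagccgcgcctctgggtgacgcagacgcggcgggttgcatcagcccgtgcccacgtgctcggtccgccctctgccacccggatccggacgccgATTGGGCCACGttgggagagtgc
CALR promoter, chr19:12938359-12938577, plus strand: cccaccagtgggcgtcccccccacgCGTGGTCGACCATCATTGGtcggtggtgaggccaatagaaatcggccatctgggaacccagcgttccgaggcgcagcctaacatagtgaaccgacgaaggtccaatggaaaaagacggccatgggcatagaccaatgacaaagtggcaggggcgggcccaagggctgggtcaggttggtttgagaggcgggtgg
The HSPA5 element lies at -66 to -48 from the RefSeq start, that of HERPUD1 at -117 to -107 and that of CALR at -225 to -207. The HSPA5 stretch also holds other CCAAT letters that are not followed by CCACG at the searched distance. HSP90B1 holds an ERSE at -194 to -176 and another, on the opposite strand, at -89 to -71.

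ERSE was present in 8 of the 34 members with a window, 23.5%, against 25 of 27305 genes with a window, 0.0916%. By windows, since a gene can have several, it was 27 of 35116, or 0.0769%, of which CANX gave 3. Members include chaperone genes known to be induced through such elements, so a higher share among members was set by their choice. The elements are aligned here in the orientation of the motif, with the fixed ends in capitals and the spacer in lower case, so that the spacers can be compared.
HSPA5, chr9:125241391-125241409: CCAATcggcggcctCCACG
HSP90B1, chr12:103930216-103930234: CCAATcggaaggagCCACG
HSP90B1, chr12:103930321-103930339: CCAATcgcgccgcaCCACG
CALR, chr19:12938384-12938402: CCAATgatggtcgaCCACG
CANX, chr5:179698778-179698796: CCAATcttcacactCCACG
PDIA6, chr2:10812853-10812871: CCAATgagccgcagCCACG
CRELD2, chr22:49918554-49918572: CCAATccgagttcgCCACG
XBP1, chr22:28800603-28800621: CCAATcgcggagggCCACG
ERO1B, chr1:236282183-236282201: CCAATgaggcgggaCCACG
Among these 8 genes, HSP90B1 and CALR rose, HSPA5 fell, and CANX, PDIA6, CRELD2, XBP1 and ERO1B did not pass, with log2 changes from -0.84 to 0.85 and a median of 0.03. ERSE-II was present in 3 members, 8.82%, against 19 of the 27305 genes, 0.0696%.
HERPUD1, chr16:56932025-56932035: ATTGGgCCACG
HYOU1, chr11:119057274-119057284: ATTGGaCCACG
HYOU1, chr11:119057380-119057390: ATTGGaCCACG
SDF2L1, chr22:21642114-21642124: ATTGGtCCACG
HERPUD1 fell and HYOU1 and SDF2L1 did not pass. Of the 11 members with either element, 2 rose and 2 fell, with a median log2 change of 0.09. Of the 23 with a window and no exact match to either element, 3 rose and 3 fell, with a median of -0.07. Among all genes tested, 12.1% were higher and 11.1% lower. The UPRE core, TGACGTG followed by G or A, a site bound by XBP1 and ATF6, was found in 3 members, TXNDC5, DNAJC10 and HYOU1, and in 393 of the 27305 genes, 1.44%; in HYOU1 it overlaps an ERSE-II. The DNAJB9 window held none of these letter strings. A match describes the letters and shows no binding. Lack of an exact match in the window does not show that a gene lacks such an element.

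**Figure D3:**
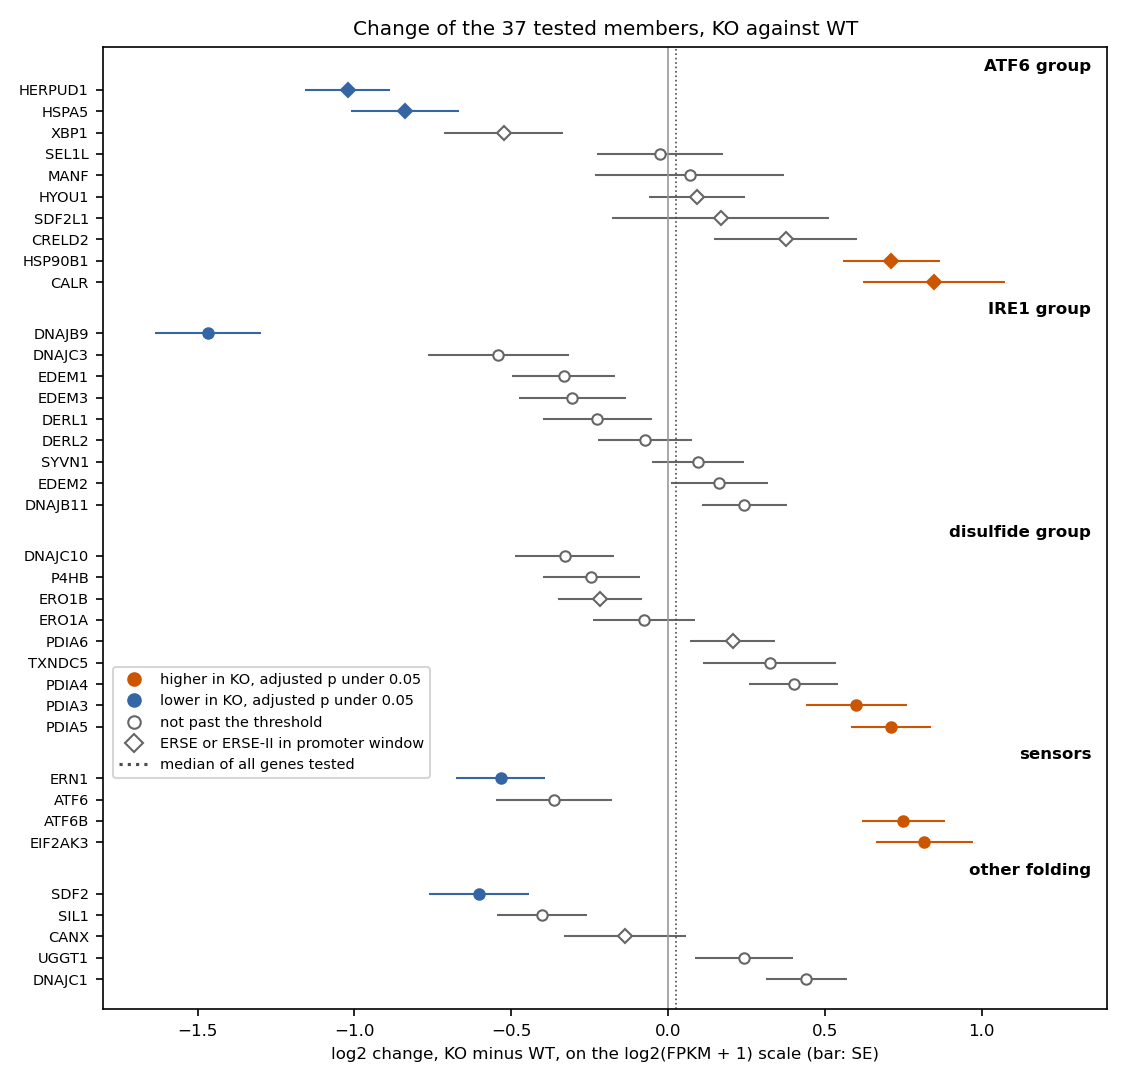
Log2 change of the 37 tested members, KO minus WT, on the log2(FPKM + 1) scale, with bars for the SE, by role. Filled symbols passed an adjusted p under 0.05, diamonds hold an ERSE or ERSE-II, and the dotted line is the median of all genes tested, 0.03. Diamonds lie at both ends of the ATF6 group, with HERPUD1 and HSPA5 lower and HSP90B1 and CALR higher.

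Genes of the IRE1 group encode J-domain co-chaperones and degradation factors known as targets of spliced XBP1. Of 9 tested, 0 rose, 1 fell and 8 did not pass. The called share was 11.1%, beside 23.3% of all genes tested. The median log2 change was -0.22, with 3 of 9 above 0. The median was -0.41 without KO replicate 1, -0.08 without KO replicate 2 and -0.15 without WT replicate 1. At an unadjusted p under 0.05 limma also gave 0 higher and 1 lower, and limma-voom called 0 and 1. DNAJB9 (chromosome 7, 108569568 to 108574850, plus strand), an inducible J-domain protein that directs BiP to IRE1 and represses it, measured 25.9 and 23.2 FPKM in WT and 9.38 and 7.21 FPKM in KO. This was the largest change among the tested members, 2.96-fold lower, with 1341 and 1078 reads in WT and 466 and 335 in KO (log2 -1.47, SE 0.17, limma adjusted p = 0.00593). The call held in 10 of the 11 alternatives and missed the threshold only with no filter on low values, at 0.0518 (range 0.000390 to 0.0518). DNAJC3, the co-chaperone p58IPK that also restrains PERK, measured 17.6 and 15.9 FPKM in WT and 14.1 and 8.86 FPKM in KO, with a wide gap between the KO libraries (log2 -0.54, SE 0.23, limma adjusted p = 0.141). The EDEM mannosidase-like proteins, which mark glycoproteins for degradation, differed in sign: log2 changes were -0.33 for EDEM1, 0.16 for EDEM2 and -0.31 for EDEM3, and 0 of the 3 passed (limma adjusted p = 0.197, 0.483 and 0.246). SYVN1, the ubiquitin ligase HRD1, changed by 0.10, DERL1 and DERL2 by -0.22 and -0.07, and DNAJB11, a BiP co-chaperone, by 0.24, none past the threshold.

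The disulfide group holds the isomerases and the oxidases that recharge them. Of 9 members, 2 rose, 0 fell and 7 did not pass. The called share was 22.2%, near the 23.3% of all genes tested. The median log2 change was 0.21 against 0.03 for all genes (0.08 without KO replicate 2). At an unadjusted p under 0.05 limma gave 3 higher and 0 lower, and limma-voom called 2 and 0. PDIA3, the isomerase ERp57 that works with calnexin and calreticulin on glycoproteins, measured 54.2 and 48.4 FPKM in WT and 85.3 and 71.8 FPKM in KO. It rose 1.53-fold and lay at the edge of the threshold (log2 0.60, SE 0.16, limma adjusted p = 0.0495). PDIA5, a less abundant isomerase linked to ATF6 activation, measured 5.56 and 5.71 FPKM in WT and 9.51 and 10.2 FPKM in KO and rose 1.75-fold (log2 0.71, SE 0.13, limma adjusted p = 0.0170). For both genes the KO libraries lay above the WT libraries. PDIA4 measured 81.6 and 83.4 FPKM in WT and 107 and 112 FPKM in KO, also without overlap, but did not pass (log2 0.40, SE 0.14, limma adjusted p = 0.0978). P4HB, the founding isomerase PDI and a subunit of the prolyl hydroxylase that modifies collagen, measured 149 and 154 FPKM in WT and 121 and 135 FPKM in KO (log2 -0.24, SE 0.15, limma adjusted p = 0.296). It was thus the most abundant isomerase in both groups and lay on the other side of 0 from PDIA3, PDIA4, PDIA5 and PDIA6. The PDIA3 to P4HB ratio was 0.364 and 0.315 in WT and 0.706 and 0.532 in KO. The oxidases ERO1A and ERO1B had log2 changes of -0.08 and -0.22, the reductase DNAJC10 of -0.33 and TXNDC5 of 0.32, none past the threshold. PDIA3 lost its call without WT replicate 1, WT replicate 2 or KO replicate 1 (limma adjusted p = 0.193, 0.283 and 0.115), and also with a pseudocount of 0.1 (0.0513), quantile normalization (0.107) or equal total FPKM (0.109, range over the alternatives 0.00831 to 0.283). PDIA5 lost it without WT replicate 1 or WT replicate 2 (0.140 and 0.118, range 0.00482 to 0.140).

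The sensor transcripts moved apart. EIF2AK3, which encodes PERK, measured 2.88 and 2.39 FPKM in WT and 5.88 and 4.94 FPKM in KO. It rose 2.05-fold (log2 0.82, SE 0.15, limma adjusted p = 0.0195). ERN1, which encodes IRE1, measured 4.59 and 3.92 FPKM in WT and 2.71 and 2.54 FPKM in KO and fell 1.62-fold (log2 -0.53, SE 0.14, limma adjusted p = 0.0481). Neither gene's groups overlapped, and the order of the sensors reversed. The EIF2AK3 to ERN1 ratio was 0.628 and 0.610 in WT and 2.17 and 1.95 in KO (exact two-sided permutation p = 0.333, the smallest possible with 2 libraries against 2). ATF6B, a paralogue of ATF6 with weaker transcriptional activity, measured 9.13 and 10.04 FPKM in WT and 16.3 and 17.3 FPKM in KO and rose 1.75-fold (log2 0.75, SE 0.13, limma adjusted p = 0.0163). ATF6 itself measured 11.03 and 9.05 FPKM in WT and 8.73 and 6.51 FPKM in KO and did not pass (log2 -0.36, SE 0.18, limma adjusted p = 0.207). The ATF6B to ATF6 ratio accordingly went from 0.828 and 1.11 in WT to 1.87 and 2.66 in KO. EIF2AK3 and ATF6B lost their calls without WT replicate 1 (limma adjusted p = 0.0775 and 0.147) or WT replicate 2 (0.126 and 0.0931), and EIF2AK3 also without KO replicate 1 (0.0605). The range over the alternatives was 0.00377 to 0.126 for EIF2AK3 and 0.00363 to 0.147 for ATF6B. ERN1 lost its call without any single library, at 0.306 and 0.156 without WT replicates 1 and 2 and 0.0902 and 0.107 without KO replicates 1 and 2, and also with equal total FPKM, at 0.111 (range 0.0161 to 0.306).

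Of the 5 other folding genes, 0 rose and 1 fell, with a median log2 change of -0.14. The called share was 20%, near the 23.3% of all genes tested. At an unadjusted p under 0.05 limma gave 1 higher and 2 lower, and limma-voom called 0 and 1. SDF2, a component of BiP chaperone cycles and homologue of SDF2L1, measured 19.4 and 19.5 FPKM in WT and 11.0 and 14.1 FPKM in KO and fell 1.55-fold (log2 -0.60, SE 0.16, limma adjusted p = 0.0483). The call was lost without WT replicate 1, WT replicate 2 or KO replicate 1 (0.226, 0.217 and 0.0994), and with a pseudocount of 0.1 (0.0521) or equal total FPKM (0.0736, range over the alternatives 0.0124 to 0.226). SIL1, a nucleotide exchange factor of BiP, measured 12.4 and 12.4 FPKM in WT and 8.34 and 9.98 FPKM in KO (limma adjusted p = 0.0978), and DNAJC1, an ER membrane J-domain protein, 11.7 and 12.2 FPKM in WT and 17.1 and 16.2 FPKM in KO (limma adjusted p = 0.0604). Neither passed, though their groups did not overlap. UGGT1, the glucosyltransferase that returns unfolded glycoproteins to calnexin and calreticulin, had a log2 change of 0.24 (limma adjusted p = 0.310).

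Transcripts downstream of PERK and ATF4 are given beside the rise of EIF2AK3. Of 9 tested genes of an ATF4 and CHOP core list of 10, 0 rose and 8 fell, with a median log2 change of -1.47. That is 88.9% called, beside 23.3% of all genes tested (11.1% lower). The list was chosen with earlier results of these data known, so this share only describes it. At an unadjusted p under 0.05 limma also gave 0 higher and 8 lower, and limma-voom called 0 and 8. ATF4, the transcription factor whose translation PERK signalling raises, measured 140.4 and 144 FPKM in WT and 70.6 and 89.3 FPKM in KO and fell 1.78-fold (log2 -0.83, SE 0.17, limma adjusted p = 0.0257). DDIT3, which encodes CHOP, measured 11.7 and 7.52 FPKM in WT and 2.10 and 2.90 FPKM in KO and fell 3.86-fold (log2 -1.58, SE 0.24, limma adjusted p = 0.0113). CHAC1, which degrades glutathione, and SESN2, a stress sensor of the mTORC1 pathway, also fell, with log2 changes of -3.24 and -1.88. Leaving out WT replicate 1, WT replicate 2 or KO replicate 1 left 5 called lower, without ATF4 (limma adjusted p = 0.135, 0.135 and 0.0658, range over the alternatives 0.00423 to 0.135), while DDIT3, CHAC1 and SESN2 passed without any single library. The 8 genes that fell thus moved opposite to EIF2AK3 in the same libraries, while CEBPB, at a log2 change of -0.42 (limma adjusted p = 0.238), did not pass and ASNS was not tested. As background, other eIF2alpha kinases also act through ATF4.

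Among 77 further genes, mostly for ER translocation, glycosylation, folding, degradation and transport, 74 were tested, 2 rose and 6 fell. That is 10.8% called, beside 23.3% of all genes, with a median log2 change of 0.0006. The list is not confined to the ER. For example, GRPEL1 acts in mitochondria, and CREBRF and BHLHA15 act in the nucleus. GRPEL1 and CREBRF did not pass, while BHLHA15 fell. The genes that fell included BHLHA15, the secretory-cell transcription factor MIST1, at 1.10 and 1.30 FPKM in WT and 0.072 and 0 FPKM in KO, from 16 and 17 reads in WT and 1 and 0 in KO. SEC11C, a signal peptidase subunit, had a log2 change of -1.06, FICD, the enzyme that AMPylates BiP, measured 5.43 and 4.59 FPKM in WT and 2.02 and 1.96 FPKM in KO, and HSPA13, an ER Hsp70-like protein, had a log2 change of -0.89. FKBP7, an ER prolyl isomerase, and CREB3L2, an ATF6-like transcription factor of secretory cells, rose, with log2 changes of 0.81 and 0.67. Without WT replicate 1 limma called 0 higher and 2 lower in this list (2 and 5 at an unadjusted p under 0.05), and without WT replicate 2 it called 0 and 2 (4 and 7 unadjusted); limma-voom called 7 and 8. The calls of HSPA13, FKBP7 and CREB3L2 were lost without either WT replicate, and also without KO replicate 2 for HSPA13 (0.0874) and without KO replicate 1 for CREB3L2 (0.0686); that of SEC11C was lost without WT replicate 2 and that of FICD without WT replicate 1.

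Exons of 23 of the 38 members overlap exons of another annotated gene, and whether counting used strand is not stated. DERL3 shares 77% of its exon bases with SMARCB1 on the opposite strand, at 2.23 to 3.13 FPKM, so its near-zero level is uncertain. TXNDC5 shares 60.6% of its exon bases with the readthrough gene BLOC1S5-TXNDC5, listed at 0, and its level is uncertain. PDIA5 shares 12.2% with SEC22A, which reached at least 2.16 FPKM in every library. DNAJB9 shares 6.45% with THAP5, at 4.81 to 7.17 FPKM, and EIF2AK3 shares 14.4% with the antisense gene AC104134.1, at most 0.0349 FPKM. SDF2 shares 2.97% with SUPT6H, at up to 24.9 FPKM. SYVN1 shares 7.24% with FAU on the same strand, at 56.8 to 123 FPKM. It also shares 6.48% with MRPL49 on the opposite strand, at 19.8 to 30.7 FPKM. SYVN1 itself measured 13.2 and 11.5 FPKM in WT and 12.5 and 14.2 FPKM in KO, so its level and change are uncertain. DERL2 shares 4.71% with MIS12 on the opposite strand, at 7.21 to 10.5 FPKM.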

How the data were processed

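RNA was sequenced as paired-end libraries and aligned with HISAT2 2.0.5, per the submitters' processing notes, which name the builds hg38 and mm10. The values are FPKM per gene and library as deposited by the authors; the sources used here do not name the counting tool, strandedness or any scaling. Coordinates of all 58735 genes equalled GENCODE release 29 on GRCh38. FPKM times length was a whole multiple of 1 step for 100% of values (tolerance 0.01), which gave the reads per library; 16173899 to 17715774 reads set the precision, for counting error only.

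Genes with at least 1 FPKM in at least 2 libraries were tested as log2(FPKM + 1) with limma 3.58.1 in R 4.3.3, without a replicate block and with a variance prior that follows intensity (2 residual and 3.54 prior degrees of freedom), at a threshold of 0.05 on Benjamini-Hochberg adjusted p. The fit was also run on simulated counts drawn independently for each library. Shifts shared by replicate number were left out, so that run does not gauge the calls given here. The added 1 FPKM shrinks log2 changes of low genes. A fold divides the 2 group means. The members, groups and lists were chosen with earlier results of these data known. Values per library are given for called members, those changed at least 1.5-fold without overlap, and the main chaperones and sensors. Members named outside this rule, and all ratios, were chosen after their values were seen. Alternatives were a pseudocount of 0.1, no filter, quantile normalization, equal total FPKM, a replicate block, a robust prior, each library left out, and, added after seeing the data, limma-voom on recovered reads.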

Additional observations from a re-analysis of the deposited data

How the results depend on the processing

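With no filter on low values, limma called 0 members higher and 0 lower (8 and 7 at an unadjusted p under 0.05), where 32306 genes were tested and 183 and 193 of all genes were called; voom on recovered reads called 6 and 5. With equal total FPKM 3 members were lower. Leaving out 1 library gave 0 to 4 higher (5 to 10 at an unadjusted p under 0.05) and 1 to 3 lower (3 to 11). Over all genes, 505 were higher and 537 lower without WT replicate 1, and 677 and 614 without WT replicate 2. The median of the ATF6 group ranged from -0.159 to 0.341 when 1 library was left out, that of the IRE1 group from -0.412 to -0.0755 and that of the disulfide group from 0.0782 to 0.201; both kept their sign in all 11 alternatives. CANX, never past the threshold, ranged from -0.340 without KO replicate 1 to 0.066, the other sign, without KO replicate 2. The cause of these shifts was not tested, except that leaving out a library removes 1 of 2 residual degrees of freedom. A group left with 1 library is assumed to vary like the other group.

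The replicate numbers are not stated to mark shared cultures, so a replicate block was only an alternative. With the block, 9 members were higher and 9 lower, and 2968 and 2577 of all genes. PDIA4, DNAJC1 and CRELD2 were then also called higher and DNAJC3, XBP1, ATF6 and SIL1 lower, and 11 of the 11 called members passed too. Replicate 2 minus replicate 1 had the same sign in WT and KO for 33 of 37 members and correlated at 0.777 across them (0.411 over all 14100 genes, which are not independent points). It was above 0 in both groups for SDF2L1, MANF, CRELD2 and CALR and below 0 in both for XBP1, SEL1L and DNAJC3. With 2 libraries per group, a member that did not pass is not shown to be unchanged.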

Other observations

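Gene length was related to the difference between replicates. The Spearman correlation of length with replicate 2 minus replicate 1 was -0.517 over the 37 tested members in WT and also -0.517 in KO, and -0.200 and -0.311 over all 14100 genes. With the KO minus WT change it was -0.223 over the members and 0.021 over all genes. These are descriptions across genes that share the same libraries.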
